A study of Mus musculus with 6 samples.

Results

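Iron handling was examined in megakaryocyte–erythroid progenitors (MEPs), the bone marrow cells that give rise to red blood cells and to platelet-forming megakaryocytes, through the 10 genes *Tfrc*, *Steap3*, *Slc11a2*, *Slc25a37*, *Slc25a28*, *Slc40a1*, *Fth1*, *Ftl1*, *Ireb2* and *Aco1*. They were chosen by symbol, for their known roles in iron uptake, storage, export and sensing, with earlier results of these data known. All 10 were among the 12101 genes with deposited values. The cells came from adult *R26-M2rtTA;Col1a1-tetO-Nanog* mice, whose strain is given as CD-1. In this double transgenic line an M2-rtTA activator at *Rosa26* switches on a *Nanog* cDNA at *Col1a1* when doxycycline (dox) is given, so induction was systemic and not limited to MEPs. Both groups carried both transgenes. The treated group drank dox for 5 days and the untreated group did not, with 3 replicates of approximately 20000 sorted MEPs in each. Samples from mice given dox without the transgenes were not analysed here, so dox itself and *Nanog* cannot be told apart. It is not stated whether animals were pooled or whether replicates came from separate animals, and the p-values therefore measure only the spread between these samples.

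Erythroid cells take up iron as transferrin bound to the transferrin receptor. Iron is freed in the endosome, reduced and passed to the cytosol, from where it goes to mitochondria for heme and iron–sulfur clusters, is stored in ferritin, or leaves through ferroportin. The iron regulatory proteins, encoded by *Aco1* (IRP1) and *Ireb2* (IRP2), bind hairpins called iron-responsive elements (IREs) in cells short of iron. Binding in a 3′ UTR protects *Tfrc* mRNA from decay, whereas binding in the 5′ UTR of ferritin and ferroportin mRNAs blocks their translation. An RNA-seq level therefore reads the first of these effects more directly than the second, which acts on protein synthesis.

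The hairpins are shown here because they tie 4 of the 10 genes to the iron regulatory proteins. UTRs of the NCBIM37 annotation were searched on the transcribed strand for the loop CAGTGN closed by a stem of 5 pairs, with G–U pairs allowed and a C before the stem. *Tfrc* held 4 copies in its 3′ UTR, at chr16:32631307-32631332, chr16:32631686-32631711, chr16:32631751-32631776 and chr16:32631798-32631823 on the plus strand. *Fth1* (chr19:10057224-10057249, plus strand), *Ftl1* (chr7:52715150-52715175, minus strand) and *Slc40a1* (chr1:45982311-45982336, minus strand) each held 1 in the 5′ UTR. Each sequence reads 5′ to 3′ with its 6-base loop in capitals.
Tfrc 3′ UTR, copy 1: ttatcggaagCAGTGCcttccataat
Tfrc 3′ UTR, copy 2: ttatcgggagCAGTGTcttccataat
Tfrc 3′ UTR, copy 3: atatcggagaCAGTGAtctccatatg
Tfrc 3′ UTR, copy 4: ttatcgggaaCAGTGTttcccataat
Fth1 5′ UTR: cctgcttcaaCAGTGCttgaacggaa
Ftl1 5′ UTR: cttgcttcaaCAGTGTttgaacggaa
Slc40a1 5′ UTR: acttcagctaCAGTGTtagctaagtt
The *Fth1* and *Ftl1* hairpins were identical at 24 of 26 bases, and the *Tfrc* copies were identical to each other at between 17 and 24 of 26. A hairpin of this pattern occurred in the 5′ UTR of 33 of 19945 genes (0.166%) and in the 3′ UTR of 125 of 20007 genes (0.625%). The loop letters by themselves were common, in 31.3% of 5′ UTRs and 67.9% of 3′ UTRs. The other 6 genes held no match, which says only that no hairpin of this strict pattern was found in their annotated UTRs. A hairpin whose stem departs from the pattern would be missed, so a link of these genes to the iron regulatory proteins is not excluded.

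Between 11264803 and 16153600 reads per library fell on the listed genes. Deposited values are in CPM, the reads of a gene per 1000000 of the normalized total for that library, on a log2 scale. They fell on whole reads, and 1 read was worth between 0.0642 and 0.091 CPM. Read numbers carry counting error only, and PCR copies are not independent molecules, whereas the 95% intervals of differences come from the spread between libraries. Reads of *Nanog* numbered 17062, 19609 and 15959 with dox against 9, 13 and 1 without. The surface receptor gene *Kit*, whose protein defines the sort, had 304 to 323 CPM with dox and 327 to 486 CPM without. The erythroid transcription factor genes *Gata1* (149 to 207 against 220 to 245 CPM) and *Klf1* (191 to 311 against 314 to 385 CPM) and the erythropoietin receptor gene *Epor* (93.3 to 140.0 against 157 to 178 CPM) were expressed in every library. In all 3 every dox-treated library was below every untreated one, dox-treated replicate 3 was the highest of its group, and none passed the adjusted threshold in limma (adjusted p = 0.130, 0.133 and 0.087). Without dox-treated replicate 3 all 3 passed, at log2 differences of -0.57, -0.83 and -0.75 (adjusted p = 0.020, 0.015 and 0.018, limma), and so did *Cd34* as higher (adjusted p = 0.035, limma). Their part in the iron gene values was not tested. *Cd34*, whose protein is absent from gated MEPs, had 172, 129 and 62.8 CPM in the dox-treated replicates and 57.6, 23.8 and 48.1 CPM in the untreated replicates. Dox-treated replicate 3 stood apart on the first principal component, at -14.8 against -57.5 and -56.3 for its group and 35.1 to 54.2 for the untreated replicates, so values without it are given beside the results that change with it. Differences were tested with limma over 12088 genes, of which 555 rose and 384 fell at an adjusted p under 0.05, 7.77% of all genes tested.

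None of the 10 iron genes passed an adjusted p of 0.05 in limma. An unadjusted p under 0.05 was reached by 3 of them (30%), *Steap3*, *Slc25a37* and *Ftl1*, against 29.2% of all genes. For 4 genes (40%) every dox-treated library lay on the same side of every untreated library, against 35.9% of all genes. In 3 of these, *Steap3*, *Slc25a37* and *Ftl1*, the dox-treated libraries were lower, a pattern seen in 18.2% of all genes, and in *Aco1* they were higher, as in 17.7% of all genes. The shares of 30% and 40% were thus near those of all genes. Mean values were lower with dox for 7 genes and higher for 3, with a median log2 difference of -0.22 against -0.03 for all genes. The directions of *Slc11a2* and *Fth1*, counted among the 7, turned positive under quantile normalization and under scaling by total reads. The genes were far from the detection limit, with at least 293 reads in any library.

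**Figure D1:**
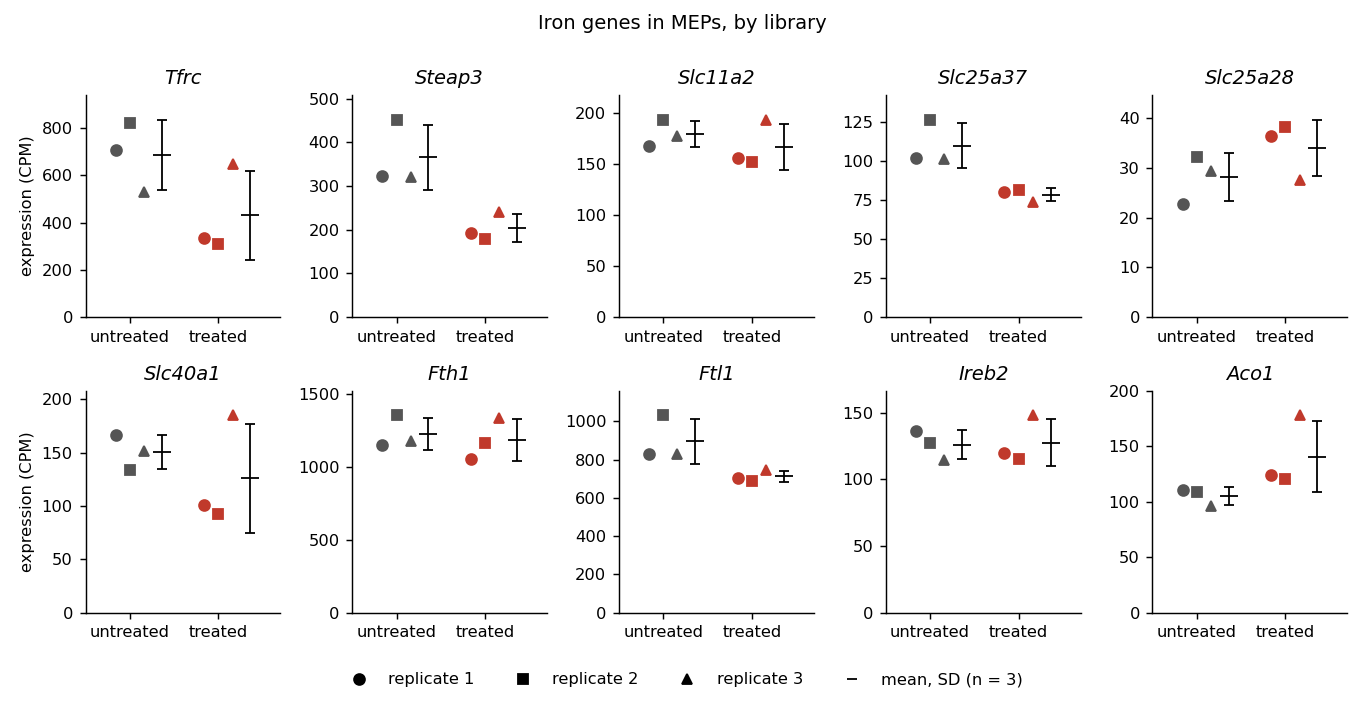
Expression of the 10 iron genes in each library, in CPM on axes that start at 0. Circles, squares and triangles are replicates 1, 2 and 3 of untreated (grey) and dox-treated (red) MEPs, and the bar gives the mean and SD (n = 3). Dox-treated libraries lie wholly below untreated ones for Steap3, Slc25a37 and Ftl1 and wholly above for Aco1, and the triangle of dox-treated replicate 3 lies apart from its group for Tfrc, Slc40a1 and Aco1.

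The uptake route begins with *Tfrc* (chr16:32609006-32632880, NCBIM37, plus strand), which encodes the transferrin receptor CD71. Its protein was not among the surface markers used to sort MEPs. *Tfrc* was expressed at 336, 309.6 and 647 CPM in the dox-treated replicates and at 708, 822 and 529.6 CPM in the untreated replicates. Dox-treated replicates 1 and 2 lay below every untreated library, while dox-treated replicate 3 lay inside the untreated range, so the groups overlapped. The group values were 431 ± 188 CPM with dox and 687 ± 148 CPM without (SD, n = 3 each), a log2 difference of -0.73 (standard error 0.33, 95% interval -1.53 to 0.07, adjusted p = 0.20, limma). Without dox-treated replicate 3 the difference was -1.07 (adjusted p = 0.026, limma). With any other library left out it lay between -0.91 and -0.54 and did not pass the threshold.

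*Steap3* (chr1:122087334-122169282, minus strand) encodes the endosomal reductase that converts ferric to ferrous iron in erythroid cells. It had 192, 179 and 239.7 CPM in the dox-treated replicates and 324, 452 and 322 CPM in the untreated replicates. Every dox-treated library lay below every untreated one, with dox-treated replicate 3 nearest to the untreated group. The mean was 203 ± 32.1 CPM with dox and 366 ± 74.5 CPM without (SD, n = 3 each), a log2 difference of -0.84 (standard error 0.19, 95% interval -1.31 to -0.37). Its p of 0.0045 was the smallest of the set and its adjusted p was 0.054 (limma), just above the threshold, and an exact permutation test gave 0.1, the smallest p that 3 libraries against 3 allow. The adjusted p was 0.026 with voom precision weights and 0.025 without dox-treated replicate 3, but between 0.106 and 0.178 with any other library left out (limma). It was under 0.05 in 7 of 17 alternatives, over a range from 0.0056 to 0.178.

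*Slc11a2* (chr15:100218329-100255503, minus strand) encodes DMT1, which carries ferrous iron out of the endosome. Its values were 156, 152 and 193 CPM with dox and 168, 194 and 177 CPM without. Dox-treated replicates 1 and 2 were the lowest of the 6 libraries, but dox-treated replicate 3 stood level with the highest untreated library. The log2 difference was -0.11 (standard error 0.14, 95% interval -0.44 to 0.22, adjusted p = 0.613, limma), and it became 0.0042 under quantile normalization and 0.00063 under total-read scaling. Without dox-treated replicate 3 the groups no longer overlapped, at a difference of -0.22 (adjusted p = 0.150, limma). In the annotation another gene overlaps it on the opposite strand, and use of strand in counting is not given in the sources used here.

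Iron enters mitochondria through the mitoferrins. *Slc25a37* (chr14:69859908-69903160, minus strand) encodes mitoferrin 1, the form that supplies developing red cells. It was expressed at 80.0, 81.6 and 73.7 CPM in the dox-treated replicates and at 102, 127 and 101 CPM in the untreated replicates. All dox-treated libraries lay below all untreated ones, and here dox-treated replicate 3 was the lowest of the 6. The means were 78.4 ± 4.18 and 110.0 ± 14.4 CPM (SD, n = 3 each), a log2 difference of -0.48 (standard error 0.13, 95% interval -0.80 to -0.17, adjusted p = 0.075, limma). It stayed negative, between -0.54 and -0.38, with each library left out in turn, but passed the threshold in none of these fits (adjusted p = 0.065 to 0.203, limma). Its adjusted p was 0.044 with voom precision weights (limma) and was under 0.05 in 3 of 17 alternatives.

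*Slc25a28* (chr19:43738312-43749371, minus strand) encodes mitoferrin 2, the form found in most other tissues. Its values were 36.3, 38.1 and 27.6 CPM with dox and 22.8, 32.2 and 29.3 CPM without. The groups overlapped because dox-treated replicate 3 fell within the untreated range, below the other dox-treated libraries. The log2 difference was 0.28 (standard error 0.19, 95% interval -0.19 to 0.75, adjusted p = 0.374, limma), and 0.42 without dox-treated replicate 3 (adjusted p = 0.122, limma). It was 0.13 without untreated replicate 1 and 0.19 without dox-treated replicate 2. The value of *Slc25a37* minus that of *Slc25a28* within a library is unaffected by a single scaling factor per library, though not by quantile normalization, under which the group difference was -0.66. This log2 difference was 1.14, 1.10 and 1.42 with dox and 2.16, 1.97 and 1.79 without. Every dox-treated library lay below every untreated one, by 0.76 on average.

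**Figure D2:**
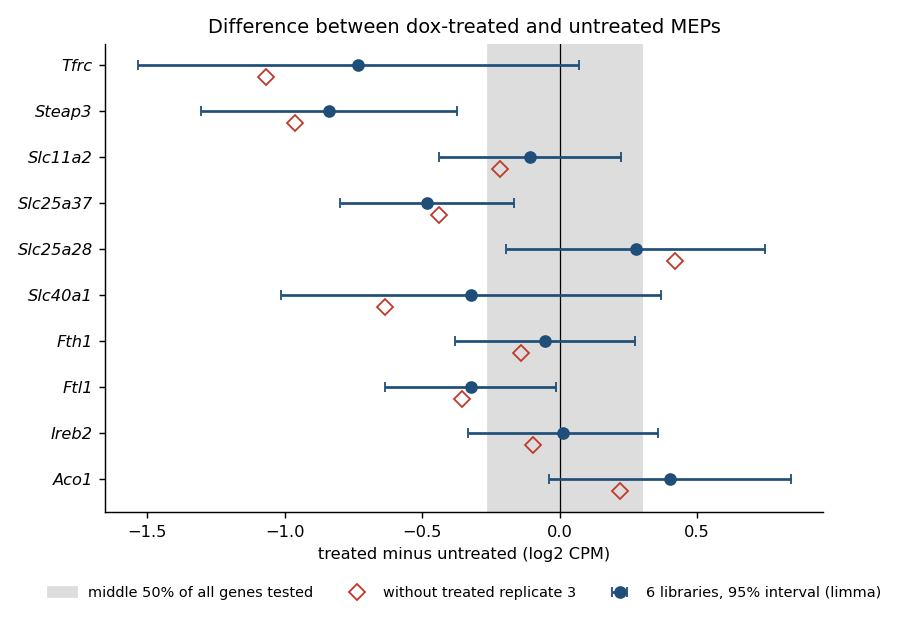
Dox-treated minus untreated difference in log2 CPM for the 10 iron genes. Filled circles with bars are the 6-library limma estimates with 95% intervals, open diamonds are the estimates without dox-treated replicate 3, and the grey band holds the middle 50% of all genes tested, from -0.26 to 0.30. The circles of Steap3, Tfrc, Slc25a37, Ftl1 and Slc40a1 lie left of the band, that of Aco1 lies right of it, and the diamonds of Tfrc and Slc40a1 lie furthest from their circles.

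Export depends on *Slc40a1* (chr1:45964915-45982439, minus strand), which encodes ferroportin, the cellular iron exporter. It had 101, 92.2 and 185 CPM in the dox-treated replicates and 166, 134 and 151 CPM in the untreated replicates. Dox-treated replicates 1 and 2 were below all untreated libraries and dox-treated replicate 3 was above all of them. The means of 126 ± 51.1 and 151 ± 16.2 CPM (SD, n = 3 each) differed by -0.32 on the log2 scale (standard error 0.28, 95% interval -1.01 to 0.37, adjusted p = 0.476, limma). Without dox-treated replicate 3 the difference was -0.63 (adjusted p = 0.027, limma). It moved the other way to -0.20 without dox-treated replicate 1 (adjusted p = 0.764, limma) and to -0.13 without dox-treated replicate 2 (adjusted p = 0.833, limma). Macrophages, which recycle iron, are known for high ferroportin. The sort took cKit-positive, Sca1-negative cells and used a lineage cocktail, which would remove mature macrophages. A list of their markers summed to 41.5, 44.5 and 32.6 CPM with dox and 83.7, 40.2 and 63.5 CPM without. In that list 13 of 15 genes had deposited values. Of the 12 tested, the complement gene *C1qc* was higher (1.35 to 1.64 against 0.443 to 0.546 CPM), the receptor gene *Csf1r* was lower (3.57 to 5.45 against 10.1 to 15.9 CPM) and the adhesion gene *Vcam1* was lower (2.89 to 5.36 against 14.7 to 50.7 CPM), all past the adjusted threshold in limma. *C1qc* reached 1 CPM only in the dox-treated libraries, so it entered the test through that group. Means were higher with dox for 9 of the 12 and the median log2 difference was 0.52. Without *Vcam1* and *Csf1r*, chosen after their values were seen, the sums were 32.6, 35.6 and 24.8 CPM with dox and 17.0, 15.4 and 23.6 CPM without, so the lower sum rested on these 2 genes. *Timd4* and *Mertk*, 2 defining markers, were not analysed here. Their part in the values of *Slc40a1* was not tested.

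Storage is the work of ferritin, a shell of heavy and light chains. *Fth1* (chr19:10057193-10059582, plus strand) encodes the heavy chain, which oxidizes iron as it enters. It was expressed at 1053, 1165 and 1333 CPM with dox and at 1150.2, 1352 and 1175 CPM without. Dox-treated replicate 1 was the lowest and untreated replicate 2 the highest, and the groups overlapped. Its log2 difference of -0.05 had a 95% interval from -0.38 to 0.27 (standard error 0.13, adjusted p = 0.814, limma), and it was 0.03 and 0.06 under quantile and total-read scaling.

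*Ftl1* (chr7:52713314-52715254, minus strand) encodes the light chain, which helps iron to mineralize inside the shell. It had 703, 689 and 744 CPM in the dox-treated replicates and 827, 1031 and 829.8 CPM in the untreated replicates. The dox-treated libraries lay below all untreated ones, with untreated replicate 2 well above the other two. The means were 712 ± 28.3 and 896 ± 117 CPM (SD, n = 3 each), a log2 difference of -0.32 (standard error 0.13, 95% interval -0.63 to -0.01, adjusted p = 0.156, limma). Of its 50-base words 53.4% also occur in other annotated genes, 12 in all, among them *Ftl2*, and none of those 12 has deposited values, so the assignment of its reads is uncertain. For *Fth1* that share was 7.10%. The log2 value of *Fth1* minus that of *Ftl1* was 0.58, 0.76 and 0.84 with dox and 0.48, 0.39 and 0.50 without, higher in every dox-treated library than in any untreated one.

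Uptake set against storage gave overlapping groups. *Tfrc* minus *Fth1* on the log2 scale was -1.65, -1.91 and -1.04 with dox and -0.70, -0.72 and -1.15 without. *Tfrc* minus *Ftl1* was -1.07, -1.15 and -0.20 with dox and -0.22, -0.33 and -0.65 without. In both, dox-treated replicates 1 and 2 lay below every untreated library, and dox-treated replicate 3 did not. The mean difference between groups was -0.68 and -0.41, and without dox-treated replicate 3 it was -0.93 and -0.71. *Steap3* minus *Tfrc*, the reductase against the receptor it serves, was -0.81, -0.79 and -1.43 with dox and -1.13, -0.86 and -0.72 without, also overlapping. Its mean difference of -0.11 became 0.10 without dox-treated replicate 3.

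**Figure D3:**
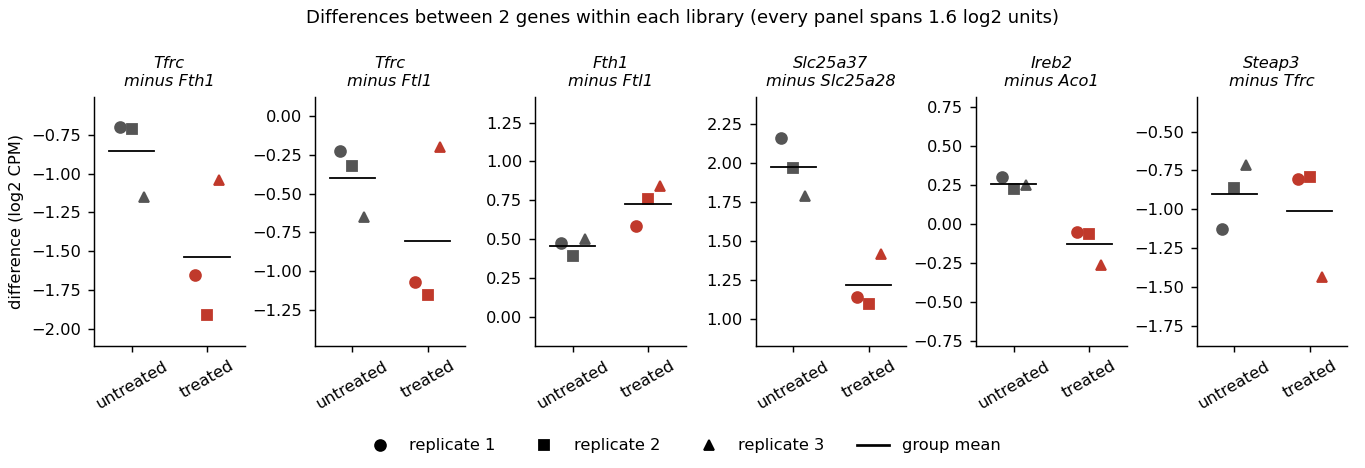
Differences between the log2 CPM of 2 iron genes within each library, for 6 gene pairs. Circles, squares and triangles are replicates 1, 2 and 3, grey for untreated and red for dox-treated MEPs, lines are group means, and every panel spans 1.6 log2 units. The groups separate for Fth1 minus Ftl1, Slc25a37 minus Slc25a28 and Ireb2 minus Aco1, and overlap in the 3 pairs with Tfrc.

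Sensing by the 2 iron regulatory proteins was examined last. *Ireb2* (chr9:54711562-54760341, plus strand) encodes IRP2, which is degraded when iron is plentiful. Its values were 119.5, 116 and 148 CPM with dox and 136, 128 and 115 CPM without. Dox-treated replicate 3 was the highest library, and the other dox-treated libraries fell among the untreated ones. The log2 difference was 0.01 (standard error 0.14, 95% interval -0.33 to 0.36, adjusted p = 0.959, limma).

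*Aco1* (chr4:40090114-40146042, plus strand) encodes IRP1, which becomes a cytosolic aconitase when it holds an iron–sulfur cluster. It was expressed at 124, 121 and 178 CPM in the dox-treated replicates and at 110.4, 109 and 96.3 CPM in the untreated replicates. Every dox-treated library lay above every untreated one, and dox-treated replicate 3 was far above the rest. The means were 141 ± 32.2 and 105 ± 7.77 CPM (SD, n = 3 each), a log2 difference of 0.40 (standard error 0.18, 95% interval -0.04 to 0.84, adjusted p = 0.202, limma). It was 0.22 without dox-treated replicate 3. *Ireb2* minus *Aco1* was -0.05, -0.06 and -0.27 on the log2 scale with dox and 0.30, 0.23 and 0.25 without, so *Ireb2* had more CPM than *Aco1* in every untreated library and less in every dox-treated one.

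Levels can be compared between genes only per length of transcript. Divided by the longest annotated transcript, the untreated levels followed the order *Fth1* (1416 CPM per kb), *Ftl1* (925), *Tfrc* (140), *Steap3* (71.0), *Slc40a1* (44.5), *Slc11a2* (40.7), *Slc25a37* (26.4), *Aco1* (24.2), *Ireb2* (21.7) and *Slc25a28* (18.6), all in CPM per kb. Ferritin chains were thus the most abundant messages of the set. The untreated ranges of *Slc40a1* and *Slc11a2* overlapped, as did those of *Slc25a37* and *Aco1*, of *Aco1* and *Ireb2*, and of *Ireb2* and *Slc25a28*, so these neighbours in the order were not separated. With the median transcript length, which short annotated fragments reduce, *Tfrc* had 515, *Slc11a2* 253 and *Aco1* 147 CPM per kb, and *Slc11a2* and *Aco1* moved above *Steap3*. The untreated ranges of *Aco1* (135 to 155) and *Steap3* (112 to 157) overlapped, so *Aco1* and *Steap3* were not separated. The first 3 places kept their order.

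Dox-treated replicate 3 was the highest of its group for 8 of the 10 genes, against 44.0% of all genes, and the lowest for the other 2, the mitoferrins, against 44.2%. Without it, *Tfrc*, *Steap3* and *Slc40a1* passed the adjusted threshold, all lower with dox. These 3 are 30% of the set, beside 28.9% of all genes tested in that fit. The remaining libraries did not overlap for 8 of the 10 genes, beside 66.6% of all genes. Markers of maturing erythroblasts summed to 995, 1203 and 1370 CPM with dox and to 1476, 1626 and 1497 CPM without, and here too dox-treated replicate 3 was the highest of its group and all dox-treated libraries were below the untreated ones. Without *Ermap*, chosen after its values were seen because it held most of the difference, the sums were 505, 739 and 805 CPM with dox and 679, 744 and 598 CPM without, and the groups overlapped. Of the 11 erythroblast markers tested, *Ermap* and *Epb4.2* fell and none rose, 7 means were higher with dox and the median log2 difference was 0.06. Granulocyte–monocyte markers summed to 516 to 769 CPM with dox and to 2378 to 5491 CPM without, with 8 of 10 lower past the threshold. Mast cell and basophil markers had 3 of 6 past it, all higher, with *Cpa3* at a log2 difference of 2.93. The means of the other 3 were lower, among them *Gzmb* at -3.42 (adjusted p = 0.053, limma). The list sums overlapped, at 426 to 474 CPM with dox and 353 to 528 CPM without. *Kit*, which is in this list and also defines the sort, held 304 to 323 CPM of them with dox and 327 to 486 CPM without. These sums therefore mostly followed *Kit* and say little of the other markers. Megakaryocyte markers summed to 177 to 437 CPM with dox and 122 to 154 CPM without, with 5 of 7 means higher. Past the threshold *Gp9* and *Gp1ba* were higher and *Vwf* was lower. The largest difference of the list was that of *Itga2b*, named after its values were seen, at 2.52 (adjusted p = 0.069, limma), and 3.27 without dox-treated replicate 3 (adjusted p = 0.0051, limma). *Itga2b* had 319, 314 and 66.9 CPM with dox and 37.5, 24.1 and 39.2 CPM without. It thus held most of the difference between the sums of this list. Stem and multipotent progenitor markers summed to 122 to 315 CPM with dox and to 45.5 to 108 CPM without. Of 6 tested, 0 passed the adjusted threshold in limma, although 5 had an unadjusted p under 0.05. Without dox-treated replicate 3, 5 passed as higher (83.3%, against 28.9% of all genes). Their part in the iron gene values was not tested. In bulk RNA, fewer cells of a type and less RNA per cell cannot be told apart.

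**Figure D4:**
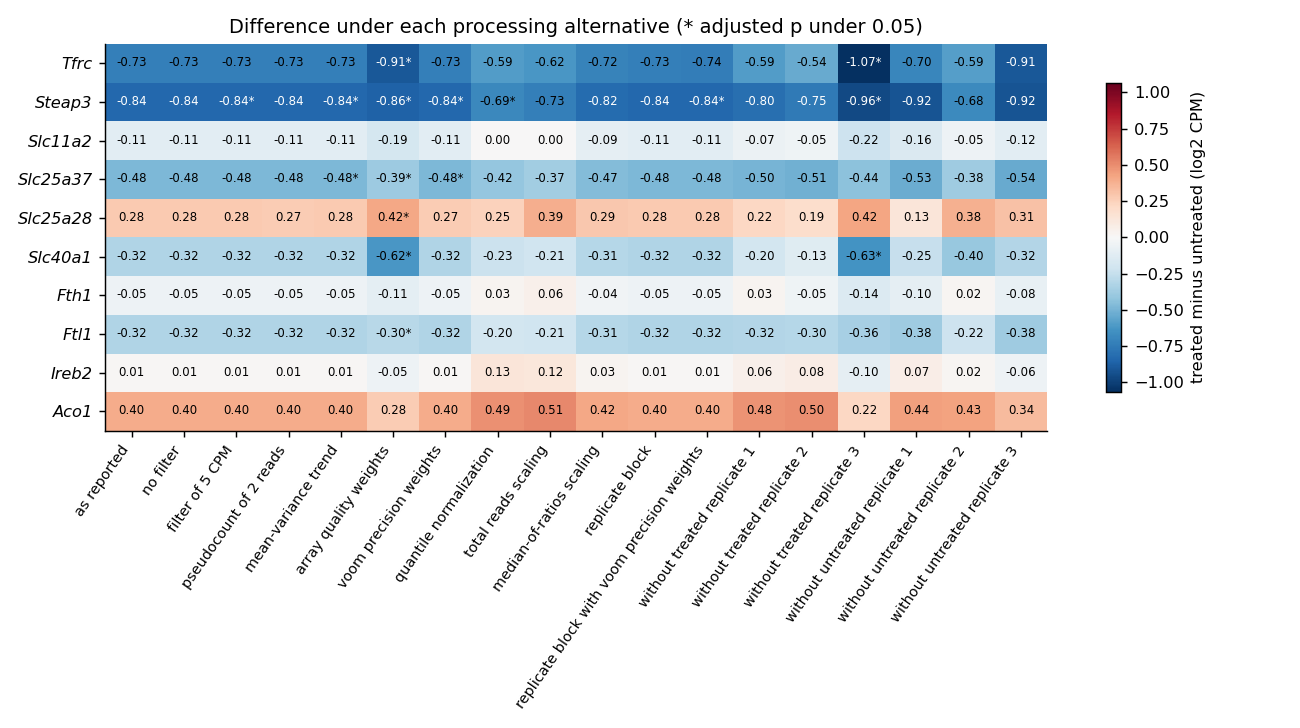
Dox-treated minus untreated difference in log2 CPM of each iron gene under each processing setting, as number and colour, with a star where the adjusted p was under 0.05. Only the columns for array quality weights and without dox-treated replicate 3 carry a star for Tfrc and Slc40a1, and the column of reported values carries none.

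Other genes of iron and heme metabolism were examined in 8 lists, with 71 of 92 genes tested. At the adjusted threshold 3 rose and 1 fell (5.63%, against 7.77% of all genes), 67 did not pass, and the median log2 difference was -0.12. Mean values were lower for 46 genes and higher for 25. Without dox-treated replicate 3, 22 passed as lower and 7 as higher (40.8%, against 28.9% of all genes).

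*Hmox1*, the inducible heme oxygenase that releases iron from heme, rose from 10, 13 and 9 reads in the untreated replicates to 94, 127 and 88 in the dox-treated replicates. The groups were widely separated, and the log2 difference was 3.02 (standard error 0.21, adjusted p = 0.0044, limma). Its untreated values were 0.778, 0.961 and 0.819 CPM. It passed the filter of 1 CPM in 3 libraries only through the dox-treated group. Its adjusted p stayed between 0.0033 and 0.028 with each library left out. It was the only gene of the export, oxidation and heme traffic list to pass among 6 tested.

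*Neo1*, neogenin, a co-receptor in hepcidin control, rose from 7, 5 and 4 reads to 103, 210 and 34 (log2 difference 3.80, standard error 0.70, adjusted p = 0.035, limma). Dox-treated replicate 3 was the lowest of its group but above all untreated libraries. *Neo1* had 0.544, 0.369 and 0.364 CPM in the untreated replicates. It passed the filter of 1 CPM in 3 libraries only through the dox-treated group. With any library other than dox-treated replicate 3 left out, its adjusted p was between 0.077 and 0.114. It was the only one of 8 sensing and systemic regulation genes to pass. In that list *Fam132b*, the erythroid hormone erythroferrone, had 26, 41 and 26 reads with dox and 55, 264 and 82 without (log2 difference -1.98, adjusted p = 0.086, limma).

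Iron–sulfur cluster assembly in mitochondria had 18 tested genes, of which *Hscb*, a co-chaperone of cluster transfer, rose. *Hscb* had 51.7, 54.4 and 42.4 CPM in the dox-treated replicates and 26.7, 19.6 and 28.5 CPM in the untreated replicates, with no overlap (log2 difference 0.999, standard error 0.19, adjusted p = 0.036, limma). Its adjusted p was between 0.076 and 0.133 with any library other than dox-treated replicate 3 left out. Of the other 17 genes none passed, and 15 had lower means with dox. Of the 18, 9 passed as lower and 1 as higher without dox-treated replicate 3 (55.6%, against 28.9% of all genes). In the cytosolic cluster list 8 of 9 means were lower and none passed, with *Fam96b*, a cluster targeting factor, nearest at a log2 difference of -0.50 (adjusted p = 0.055, limma). Of the 9, 4 passed as lower without dox-treated replicate 3 (44.4%, against 28.9% of all genes).

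In heme synthesis, *Alas1*, the housekeeping form of the first enzyme of the pathway, fell. It had 33.0, 35.5 and 37.9 CPM with dox and 146, 86.3 and 111 CPM without, with no overlap (log2 difference -1.66, standard error 0.20, adjusted p = 0.015, limma). The adjusted p was 0.060 without dox-treated replicate 1, 0.059 without dox-treated replicate 2 and 0.064 without untreated replicate 3. None of the other 10 genes passed. *Alad*, the enzyme of the next step, had 108, 94.6 and 148 CPM with dox and 178, 226 and 193 CPM without (log2 difference -0.79, adjusted p = 0.066, limma). *Cpox*, coproporphyrinogen oxidase, had 322, 349.7 and 441 CPM with dox and 571, 686 and 512 CPM without (log2 difference -0.67, adjusted p = 0.072, limma). Both were lower in every dox-treated library than in any untreated one, and both passed without dox-treated replicate 3 (adjusted p = 0.016 and 0.025, limma). *Alas2*, the erythroid form, also carries an IRE-type hairpin in its 5′ UTR and had only 61, 110 and 97 reads with dox and 44, 64 and 32 without (log2 difference 0.75, adjusted p = 0.139, limma).

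The transferrin cycle list, the storage list and the list of other IRE-bearing mRNAs had no gene past the threshold among 11, 5 and 4 tested. There were 2, 3 and 2 without dox-treated replicate 3 (18.2%, 60% and 50%, against 28.9% of all genes). *Ncoa4* and *Cdc42bpa* were among them (adjusted p = 0.029 and 0.020, limma). Among these 20 entries an unadjusted p under 0.05 was reached by 5 (25%, against 29.2% of all genes). *Lcn2*, which carries iron in siderophores, had 16, 99 and 30 reads with dox and 114, 137 and 127 without (adjusted p = 0.114, limma). *Ncoa4*, the receptor that delivers ferritin for breakdown, had 223, 264 and 206 CPM with dox and 170.0, 135 and 148 CPM without (log2 difference 0.61, adjusted p = 0.060, limma). *Cdc42bpa*, a kinase placed in the list for an IRE known from other work, in whose annotated UTRs the search found no match, had 79.2, 80.6 and 102 CPM with dox and 57.8, 58.7 and 56.6 CPM without (log2 difference 0.59, adjusted p = 0.053, limma). Dox-treated libraries were above all untreated ones for *Ncoa4* and *Cdc42bpa* and below all of them for *Lcn2*.

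**Figure D5:**
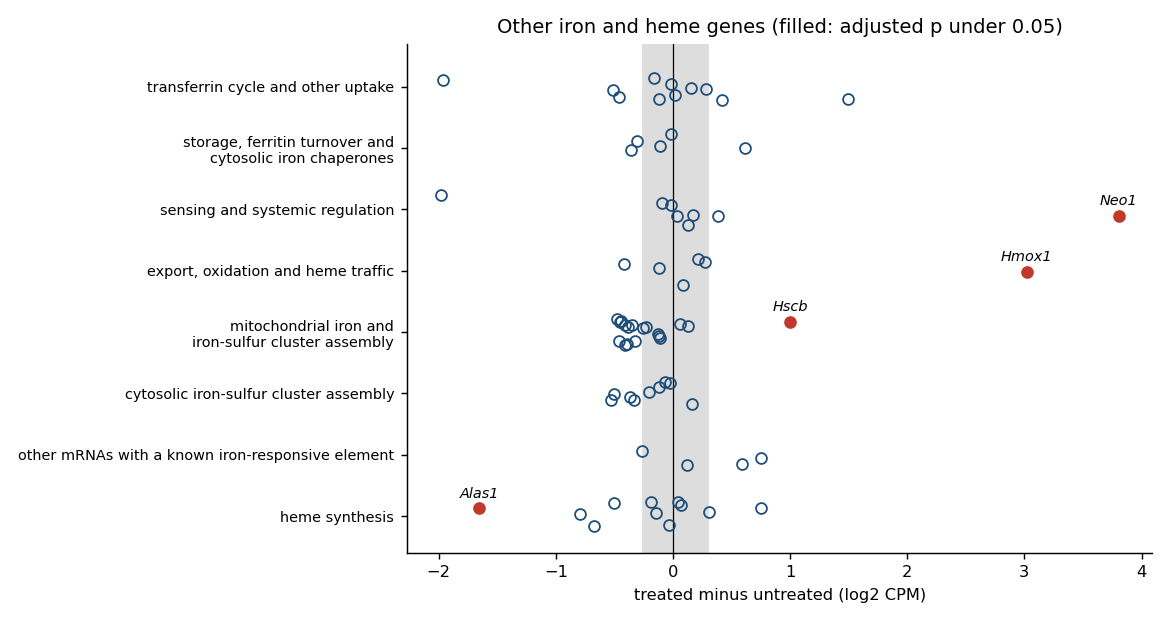
Dox-treated minus untreated difference in log2 CPM for the other iron and heme genes, each circle a gene, grouped by list, with Alas2 drawn in both lists that hold it. Filled circles passed an adjusted p of 0.05 in limma, and the grey band holds the middle 50% of all genes tested. Neo1, Hmox1 and Hscb lie to the right, Alas1 to the left, and most circles of both iron–sulfur cluster lists lie left of 0.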

How the data were processed

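RNA-seq was carried out on MEPs from 3 dox-treated and 3 untreated replicates. The authors removed adapters with Cutadapt, quantified reads with RSEM on Ensembl transcripts of NCBIM37 and used limma for normalization. The deposited values are log2 CPM with 0.5 reads added, given for each library without pooling. Whole reads were recovered by taking the lowest value of each library as 0 reads, and 100% of values came out within 0.01 reads of a whole number (largest deviation 6.64e-09 reads). The low-value filter and the use of strand are not given in the sources used here.

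Gene symbols, positions, UTRs and transcript lengths came from an NCBIM37 annotation of an earlier Ensembl release than the one the authors used. It named 12067 of 12101 genes. Limma (version 3.58.1, R 4.3.3; lmFit and eBayes, no block or weights) was fitted on the 12088 genes that reached 1 CPM in 3 or more libraries. P-values were adjusted by Benjamini–Hochberg, with calls made under 0.05. Because of the 0.5 reads added, log2 differences of genes with few reads are understated. The fit was tested on simulated data. A two-sided exact permutation test of single genes cannot give a p under 0.1. Differences between 2 genes and levels per length had no test. Hairpins were searched with a stem of 5 pairs, and shared sequence with words of 50 bases. Tables and plots used Python 3.11.15, pandas 2.3.3, numpy 2.4.6, scipy 1.17.1 and matplotlib 3.10.9.

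The 10 genes and the other lists were chosen with earlier results of these data known. All 10 genes are named, with other iron genes that passed the threshold or had up to the 4 smallest p-values in their list. Up to 3 genes per marker list and the defining macrophage markers are also named, and *Itga2b* in addition to these. *Gata1*, *Klf1*, *Epor*, *Kit*, *Cd34*, *Fcgr3* and *Ly6a* were added to check the cell type. The alternatives changed the filter, the pseudocount, the variance model, the weights, the scaling, the block, the threshold and the transcript length, and left out each library in turn.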

Additional observations from a re-analysis of the deposited data

How the results depend on the processing

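Across 17 alternative fits of the 10 iron genes, 145 of 170 differences kept their direction and their side of the threshold, 16 passed it and 9 changed sign. The sign changes were *Slc11a2* (0.0042 with quantile normalization, 0.00063 with total reads), *Fth1* (0.031 with quantile normalization, 0.057 with total reads, and -0.14 to 0.028 with each library left out, positive without treated replicate 1 at 0.028 and without untreated replicate 2 at 0.019) and *Ireb2* (-0.052 with array quality weights, and -0.098 to 0.080 with each library left out, negative without treated replicate 3 at -0.098 and without untreated replicate 3 at -0.055). Against 0 iron genes called, 6 were called with array quality weights, 2 with voom precision weights, 2 with a mean-variance trend, 2 at a threshold of 0.1, 1 with a 5 CPM filter, 1 with quantile normalization and 0 to 3 with each library left out (3 without treated replicate 3). Groups not overlapping numbered 4 to 8 (8 without treated replicate 3, where 66.6% of all genes did not overlap). Against 4 other iron genes called, there were 9 with a 5 CPM filter, 13 with the trend, 33 with array quality weights, 10 with voom precision weights, 15 at a threshold of 0.1 and 1 to 29 with each library left out. Of all 12088 genes tested 939 were called, against 1656 with the trend, 5116 with array quality weights and 2212 at a threshold of 0.1. There were 1185 with voom precision weights, 1185 with quantile normalization and 135 to 3488 with each library left out. With a 5 CPM filter 1145 of 9979 genes were called. The counts of iron genes are to be read beside these. Total-read scaling moved the median of all genes by 0.110. The causes were not tested.

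Under the replicate block the number of a replicate was a term of the fit. It called 0 of the 10 iron genes, 1 of the other iron genes (*Hmox1*) and 82 of all genes. With the block and voom precision weights 1 iron gene (*Steap3*, adjusted p = 0.036, limma) and 926 of all genes were called. Deviations of same-numbered libraries correlated at 0.018, -0.121 and -0.299, so the numbers were not taken to pair the samples. All 10 genes had at least 293 reads in every library, and 3 libraries a group limit the precision.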
